A study of Mus musculus with 5 samples.

Results

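The X-linked testis cluster is a group of small miRNA genes on the mouse X chromosome that includes miR-871 and miR-878. Its members were chosen by name: every entry of the miRNA tables, either arm, of miR-201, miR-463, miR-465a to d, miR-470, miR-471, miR-547, miR-741, miR-742, miR-743a, miR-743b, miR-871, miR-878, miR-880, miR-881, miR-883a and miR-883b. This gave 37 of the 1316 entries, 18 from 5p and 19 from 3p arms, since miR-881 is listed with its 3p arm only. The name "testis" held in part: the cluster's share of miRNA reads was highest in spermatogonia (11.3%) and primordial germ cells (10.2%), but the oocyte (5.38%) and the zygote (5.57%) had more than spermatozoa (3.78%).

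A miRNA hairpin is cut into a duplex whose strands, the 5p and 3p arms, can each be loaded into an Argonaute protein. Usually 1 arm is kept and the other degraded, and bases 2 to 8 of the kept arm, the seed, choose the mRNAs it represses. Members of this cluster are known as miRNAs of the male germ line that change quickly in evolution, with relatives in human in the miR-506 family. In male meiosis the X chromosome is transcriptionally silenced, so miRNAs of the X have been followed closely across spermatogenesis.

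Reads of 18 to 32 nucleotides were counted in 5 libraries, 1 per cell type. Primordial germ cells (PGCs) came from CD-1 male gonads at 13.5 days of gestation, enriched with anti-CD15 beads, and spermatogonia from CD-1 testes 8.5 days after birth, enriched by letting somatic cells attach. CD-1 spermatozoa were taken from vas deferens and cauda epididymis and cleaned on a Percoll gradient and by hypo-osmotic shock. The oocyte library was a pool of 15210 metaphase II oocytes of C57BL/6 females, and the zygote library a pool of 15416 zygotes from C57BL/6 mothers and DBA/6J fathers, 15 to 18 hours after fertilization. Females were 4 to 5 weeks old and superovulated. Strain and preparation differ between the male germ cell and egg libraries and cannot be told apart from cell type. With 1 library per cell type there is no replicate check and no test between them. Levels are given as RPM, the reads of an entry divided by all miRNA reads of its library, times 1000000, a scale on which a member's level also depends on all other miRNAs. Brackets give exact 95% intervals, Clopper-Pearson for shares and conditional on the sum for ratios of counts; they cover counting error only. PGCs had 12004614 miRNA reads, spermatogonia 10657432, spermatozoa 1216358, the oocyte 2010462 and the zygote 2327081. A count of 0 therefore allows up to 0.250, 0.281, 2.47, 1.49 and 1.29 RPM, in that order. In whole-cell RNA, fewer cells of a type and less RNA per cell cannot be told apart.

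By the RefSeq table of GRCm38.p6 (the genome also called mm10), the members come from 21 hairpins on the minus strand of chromosome X. Of these, 19 lie within 62.4 kb at chrX:66776757-66839125, and GENCODE M21 gives the same positions for all 21. The protein-coding gene nearest to the group of 19 is Slitrk2, 115.4 kb away. None of the hairpins overlaps another annotated gene. The hairpins of miR-201 and miR-547 lie 1.15 Mb from the rest, at chrX:67988096-67988451. Another annotated hairpin beside that pair, of miR-509, was not analysed here.

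All 37 mature sequences were matched in the RefSeq table and are 21 to 23 nucleotides long, so levels of members are compared without a correction for length. They carry 29 different seeds, of which 5 are shared by several members and 1 by a miRNA outside the cluster. Shown first, 5′ to 3′ with the seed in capitals, are the 4 members with most reads over the 5 libraries, followed by miR-881-3p and miR-470-5p, neighbours of these whose levels are described with them.
miR-878-5p: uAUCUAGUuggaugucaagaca
miR-871-3p: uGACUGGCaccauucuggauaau
miR-880-3p: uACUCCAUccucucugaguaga
miR-741-3p: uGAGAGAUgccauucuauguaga
miR-881-3p: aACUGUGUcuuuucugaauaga
miR-470-5p: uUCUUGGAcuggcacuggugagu
The next sequences are those of members that share a seed and can in principle address the same seed sites. The other arm of miR-871 shares its seed with miR-743a-5p and differs from it by A11G and A17U, with positions counted from the 5′ end. The 3p arms of miR-743a and miR-743b differ by C9U, A12U and G18A, and those of miR-883a and miR-883b by G12U.
miR-871-5p: uAUUCAGAuuagugccagucaug
miR-743a-5p: uAUUCAGAuuggugccugucau
miR-743a-3p: gAAAGACAccaagcugaguaga
miR-743b-3p: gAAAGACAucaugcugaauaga
miR-883a-3p: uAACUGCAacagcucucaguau
miR-883b-3p: uAACUGCAacaucucucaguau
miR-465 is the most repeated miRNA of the locus, with 6 hairpins. Its 5p arms share 1 seed, and the 3p arms of miR-465a, b and c are the same sequence.
miR-465a-5p: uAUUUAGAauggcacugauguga
miR-465b-5p: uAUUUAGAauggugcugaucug
miR-465c-5p: uAUUUAGAauggcgcugaucug
miR-465d-5p: uAUUUAGAaugguacugauguga
miR-465a-3p, b-3p and c-3p: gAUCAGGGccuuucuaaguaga
A first base of U, which Argonaute proteins are known to favour, was found in 17 of the 18 5p members and 9 of the 19 3p members. The share was 70.3% over the 37 members and 40.9% over all 1679 mature mouse sequences listed.

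The summed level of the cluster was 102020 RPM in PGCs and 113447 in spermatogonia, with 37783 in spermatozoa, 53800 in oocytes and 55746 in zygotes. As shares of miRNA reads these were 10.2% [10.18 to 10.22], 11.3% [11.33 to 11.36], 3.78% [3.74 to 3.81], 5.38% [5.35 to 5.41] and 5.57% [5.55 to 5.60]. The male germ cells of fetal and early postnatal testis were the highest, and spermatozoa the lowest. The order of the highest pair was not stable: spermatogonia were 1.11-fold above PGCs in RPM, but 0.995-fold with reads of all reported small RNA classes as the base and 0.712-fold with edgeR's TMM factors. In RPM the order of the gametes rested on miR-871-3p. Without it the cluster took 3.75% of miRNA reads in spermatozoa and 3.13% in the oocyte, a log2 ratio of 0.26. This is smaller in size than the shift of that pair with TMM (-0.57) or without the most abundant entries (-0.28). With those scalings spermatozoa stay below the oocyte even without miR-871-3p. Over the 4 reported classes together (miRNA, snoRNA, piRNA and endo-siRNA) the cluster's share was 4.61% (PGCs) and 4.59% (spermatogonia), against 0.211% in spermatozoa, 0.250% in oocytes and 0.300% in zygotes.

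**Figure D1:**
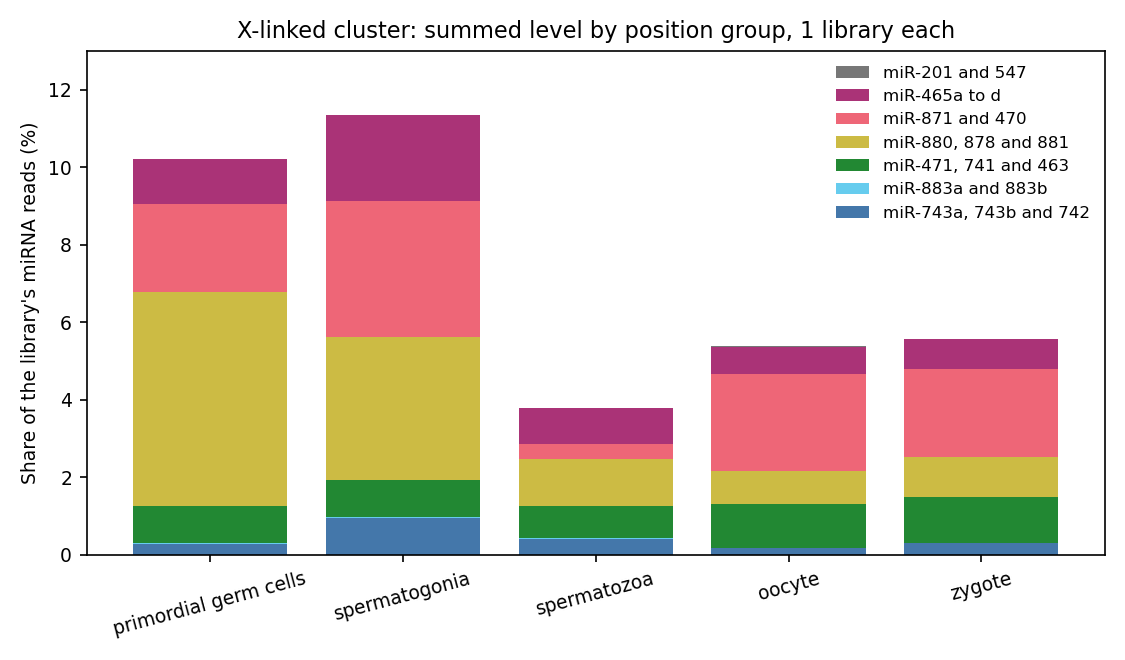
Share of each library's miRNA reads (%, vertical axis) taken by the cluster, 1 bar per library, stacked by groups of neighbouring hairpins. Bars of PGCs (10.2%) and spermatogonia (11.3%) stand above the others, and the segment of miR-871 and miR-470 is 2.26% to 3.50% in all libraries but spermatozoa (0.388%).

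Marker lists of other cells differed between the libraries as well. The testis soma list (6 of 6 entries with a read in each library) summed to 248091 RPM in spermatogonia and 230886 in spermatozoa, against 10995 in PGCs, 32285 in oocytes and 23780 in zygotes. Most of it was miR-143, a miRNA of smooth muscle, with 23.1% of miRNA reads in spermatogonia and 23.0% in spermatozoa. In spermatozoa miR-143 alone was at 230312 RPM, and in spermatogonia at 230947. The other miRNAs of the list, miR-202 and miR-145a, thus had almost no part in the spermatozoa sum. Both entries of miR-126, the endothelial list, had reads in each library and summed to 9053 RPM in spermatogonia and 96.7 to 1051 elsewhere. In spermatozoa the erythroid list (5 of 5 entries with a read) summed to 19450 RPM, the epithelial list (10 of 10) to 22968 and the leukocyte list (6 of 7) to 3106, against 2031, 1084 and 304 in spermatogonia. Lists for the labelled cell types were made for PGCs and spermatozoa only. The pluripotency list of the miR-290 and miR-302 groups summed to 42619 RPM in PGCs (19 of 19 entries with a read), 10600 in the zygote, 5701 in the oocyte, 1692 in spermatogonia and 65.8 in spermatozoa (7 of 19). The list of miR-34b, miR-34c and miR-449, of later spermatogenesis, summed to 235995 RPM in spermatozoa and 932 to 8295 elsewhere. The part of these lists in the cluster's levels was not tested.

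Of the 37 entries, 16 reached 1000 RPM in at least 1 library, all of them in the main cluster. These 16 held 98.2% of the cluster's reads in PGCs and 92.0% in spermatozoa, with the other libraries between 98.0% and 98.3%. In RPM, 10 of the 16 were highest in spermatogonia, 3 in PGCs, 2 in spermatozoa, 1 in the zygote and 0 in the oocyte; the 10 count the identical 3p sequence of miR-465a, b and c as 3. Among entries with at least 100 reads over the libraries, 15 of 34 members and 203 of all 575 miRNAs were highest in spermatogonia.

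The group of miR-880, miR-878 and miR-881, whose hairpins lie next to each other, led the cluster in PGCs with 54.3% of its reads and made up 15.7% in the oocyte. miR-878-5p was at 35737 RPM in PGCs, where it was the 5th most abundant miRNA entry, and 19946 in spermatogonia, with 5197 in spermatozoa, 4924 in oocytes and 4950 in zygotes. Spermatozoa, oocyte and zygote thus lay close together and well under both earlier male stages. Its partner arm miR-878-3p was at 598 RPM in PGCs and 1500 in spermatogonia, with 112 in spermatozoa, 86.5 in oocytes and 113 in zygotes. miR-880-3p was at 15510 RPM in PGCs and 13812 in spermatogonia, with 2747 in spermatozoa, 1090 in oocytes and 2804 in zygotes. miR-881-3p had another order, with 4049 RPM in spermatozoa and 3553 in PGCs at the top, 2414 in the zygote, 2332 in the oocyte and 1683 in spermatogonia. Of the 16, only miR-881-3p and miR-743b-3p were lowest in spermatogonia.

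miR-741-3p had the smallest ratio of highest to lowest level among the 16. It was at 8072 RPM in PGCs and 8302 in spermatogonia, with 6233 in spermatozoa, 10825 in oocytes and 11345 in zygotes. In spermatozoa it was the member with most reads, 16.5% of the cluster, and in both egg libraries it came next after miR-871-3p.

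miR-871-3p had the largest ratio of highest to lowest level among the 16. It was at 19095 RPM in PGCs and 28246 in spermatogonia, with 242.5 in spermatozoa, 22477 in oocytes and 20212 in zygotes. It was thus the leading member in spermatogonia, oocyte and zygote, with 24.9%, 41.8% and 36.3% of the cluster, and made up 0.642% of it in spermatozoa. It ranked between 9th and 11th among all miRNA entries in 4 libraries and 154th in spermatozoa. Its partner arm miR-871-5p was highest where miR-871-3p was lowest, at 1157 RPM in PGCs and 1210 in spermatogonia, with 2266 in spermatozoa, 806 in oocytes and 1076 in zygotes. miR-470-5p, from the next hairpin, was at 5536 RPM in spermatogonia and 2350 in PGCs, with 1260 in spermatozoa, 1641 in oocytes and 1299 in zygotes, a far narrower range than that of miR-871-3p beside it.

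The paralogs miR-743a-3p and miR-743b-3p, which share a seed and whose hairpins are direct neighbours, had unlike patterns. miR-743a-3p was at 1284 RPM in PGCs and 8271 in spermatogonia, with 2237 in spermatozoa, 737 in oocytes and 1774 in zygotes. miR-743b-3p was at 1324 RPM in PGCs and 602 in spermatogonia, with 1173 in spermatozoa, 845 in oocytes and 928 in zygotes. The ratio of the first to the second, which no scaling can move, was 0.970 in PGCs and 13.7 in spermatogonia, with 1.91 in spermatozoa, 0.873 in oocytes and 1.91 in zygotes.

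The miR-465 entries together took 11527 RPM in PGCs and 22242 in spermatogonia, with 9260 in spermatozoa, 7127 in oocytes and 7746 in zygotes. The reads of the identical 3p arms stood at 1 to 2 to 2 for miR-465a, b and c in each library, with 8475, 16949 and 16949 reads in PGCs, which is the number of hairpins of each (1, 2 and 2). The 3p entries therefore hold 1 measured quantity: 3530 RPM in PGCs and 8521 in spermatogonia, with 1780 in spermatozoa, 1844 in oocytes and 2016 in zygotes. The 5p entries differ in sequence, and miR-465a-5p was at 2494, 5548, 3178, 1623 and 1671 RPM in the same order. miR-465d, whose 5p arm is 1 base from that of miR-465a, was low outside PGCs: its 5p entry was at 58.6 RPM in PGCs and 5.16 in spermatogonia, with 3.84 in spermatozoa, 0 in oocytes and 4.66 in zygotes.

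**Figure D2:**
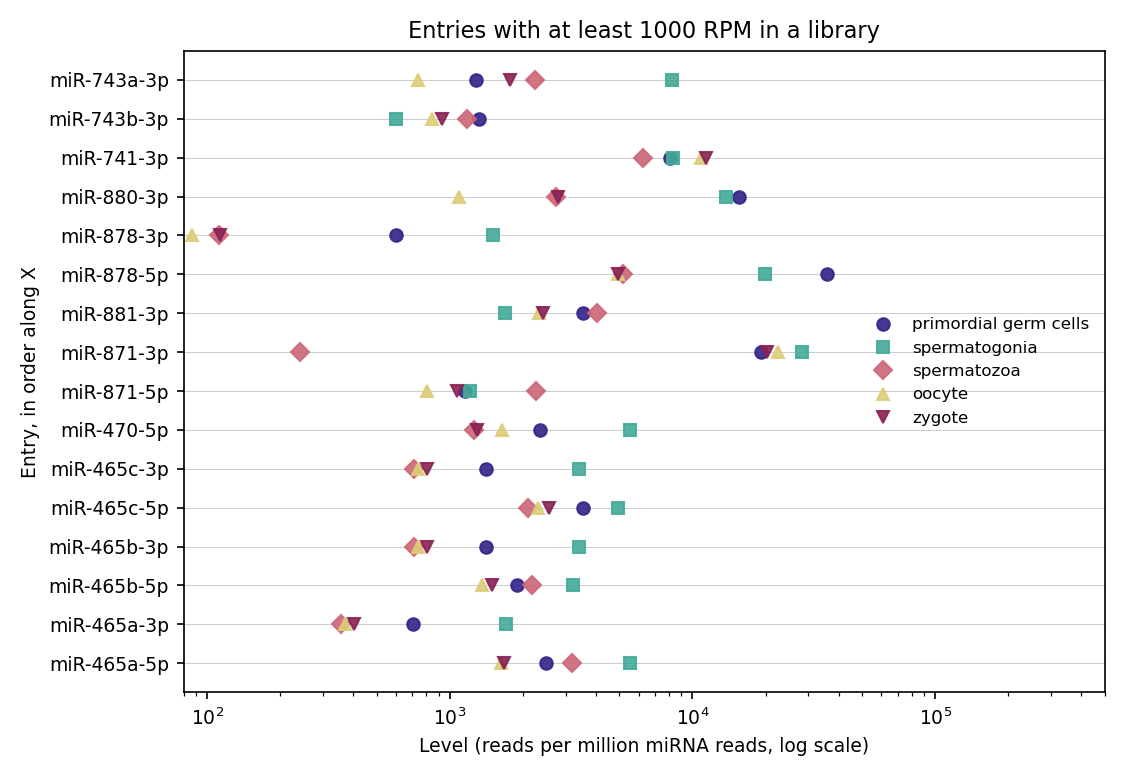
Plotted are the 16 entries that reached 1000 RPM in a library by level (horizontal axis, RPM, log scale), 1 point per library, in order along the chromosome. miR-871-3p in spermatozoa (242.5 RPM) is far left of its other 4 points (19095 to 28246 RPM), while miR-741-3p spans 6233 to 11345 RPM.

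Arm use differed between the libraries in ways that scaling cannot move, since both arms of a hairpin are read in the same library. The 5p share of miR-871 was 5.71% [5.62 to 5.81] in PGCs, 4.11% [4.04 to 4.18] in spermatogonia, 3.46% [3.30 to 3.63] in oocytes and 5.05% [4.86 to 5.25] in zygotes, but 90.3% [89.2 to 91.4] in spermatozoa. Spermatozoa had 9.34 reads of the 5p entry (2756.5 in all) for each read of the 3p entry, where spermatogonia had 23.3 reads of the 3p entry (301035 in all) for each of the 5p entry. The range of the 5p share over the libraries, 86.9 percentage points, was the widest of all 167 miRNAs with at least 20 reads over both arms in every library. The leading arm in spermatozoa differed from that of all other 4 libraries in 9 of these 167 miRNAs, and miR-871 was the only 1 among the 15 members.

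Other members changed their leading arm as well. Over the 5 libraries the lead passed between arms in 5 of 15 members (33.3%) and in 23 of 152 other miRNAs (15.1%). Those 5 include miR-465b and miR-742, whose limits are given below, and the other miRNAs were not screened for such cases. The median range of the 5p share was 16.8 points for members, the value of miR-465c, and 5.12 for the others. The shares of miR-465a, b and c are not separate measurements, since they divide the same 3p reads. For miR-883b the 5p share was 76.4% [72.1 to 80.4] in PGCs, 68.2% [66.1 to 70.3] in spermatogonia and 70.0% [50.6 to 85.3] in the zygote. It was 10.9% [6.48 to 16.9] in spermatozoa and 23.3% [9.93 to 42.3] in the oocyte, where the arms had 30 reads together. For miR-463 it ran from 35.9% [32.7 to 39.2] in the zygote and 46.6% [45.7 to 47.6] in PGCs to 68.7% [67.6 to 69.7] in spermatogonia. miR-742 in the oocyte, at 47.6% [32.0 to 63.6], could not be told from an even split at 42 reads. miR-465b was just under an even split in spermatogonia (48.5%), but its 3p reads are the shared ones. By contrast the 5p share of miR-878 was at least 93.0% in each library and that of miR-470 at least 91.9%, while those of miR-741 and miR-880 were at most 6.72% and 0.0598%.

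The less used arm of some hairpins was at its highest share in spermatozoa. It was 6.72% for miR-741 there against 0.675% to 1.79% elsewhere, and 8.15% for miR-470 against 0.452% to 1.31%. The same held for 6 of 15 members (40.0%) and 49 of 152 other miRNAs (32.2%). The 6 include miR-880, whose 5p entry had only 2 reads in spermatozoa. They also include miR-871 (90.3%) and miR-883b (89.1%), where the arm with fewer reads over the 5 libraries led in spermatozoa. Both repeat changes of the leading arm given above. Such cases were not set apart among the other miRNAs.

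**Figure D3:**
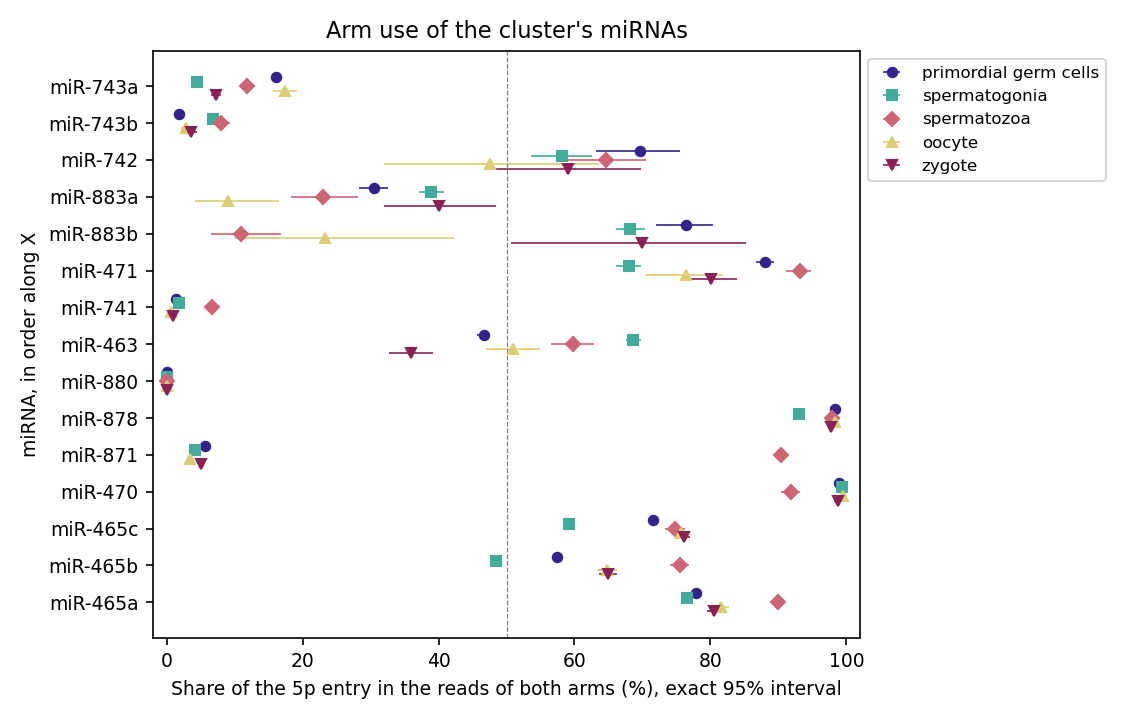
Share of the 5p entry in the reads of both arms (%, horizontal axis) for the 15 members with at least 20 reads over both arms in every library, 1 point per library with its exact 95% interval; the dashed line is an even split. miR-871 in spermatozoa (90.3%) lies across the line from its other 4 points (3.46% to 5.71%).

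Spermatogonia were then compared with PGCs, the cells that precede them. A member is called measured in a comparison if it has at least 100 reads over the pair, and 4-fold differences were counted. Of 32 measured members, 3 differed 4-fold or more towards spermatogonia, as did 25.7% of all 530 measured miRNAs, and 1 towards PGCs, as did 12.6%. The higher ones were miR-743a-3p at 6.44-fold [6.33 to 6.55], miR-883b-3p at 7.06-fold [5.69 to 8.83] and miR-883b-5p at 4.67-fold [4.13 to 5.30]. miR-883b-5p was under 4-fold with TMM, with DESeq2, without the top 5 entries and with the deposited factor, and miR-743a-3p with the deposited factor, which left 1 higher and 1 lower member. The lower one was miR-465d-5p, at 11.3-fold [8.62 to 15.2]. Most members differed less: miR-871-3p was 1.48-fold higher in spermatogonia in RPM [1.471 to 1.487], a direction that turns with TMM, DESeq2 and the deposited factor, and miR-878-5p 1.79-fold lower [1.78 to 1.80]. The median log2 ratio of the measured members was 0.71, beside 0.65 for all measured miRNAs, so the cluster lay near the middle of the miRNAs of this pair.

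From spermatogonia to spermatozoa the log2 ratios of measured members ran from -6.86 to 2.38, beside -9.44 to 13.7 for all measured miRNAs. Among the 31 measured here, 1 differed 4-fold or more towards spermatozoa, as did 14.9% of all measured miRNAs, and 8 towards spermatogonia, as did 37.2%. miR-871-3p was lowest of the members, at 116-fold lower [104 to 131]. It was followed by miR-878-3p at 13.4-fold [11.3 to 16.0], miR-883b-5p at 8.86-fold [5.51 to 15.2], miR-880-3p at 5.03-fold [4.86 to 5.21], the shared 3p reads of miR-465a, b and c at 4.79-fold, which count as 3 of the 8, and miR-470-5p at 4.39-fold [4.18 to 4.62]. The higher one was miR-742-5p at 5.19-fold [4.25 to 6.33]: it was at 13.2 RPM in PGCs and 25.8 in spermatogonia, with 134 in spermatozoa, 9.95 in oocytes and 21.1 in zygotes. miR-881-3p was 2.41-fold [2.33 to 2.48] and miR-871-5p 1.87-fold [1.80 to 1.95] higher in spermatozoa in RPM; both directions turn with the deposited factor and per read of all 4 classes, and that of miR-742-5p with the latter. The split of higher and lower members depended on scaling: 5 and 3 with DESeq2's size factors, 4 and 3 with a total that leaves out the top 5 entries per library, 0 and 19 with the deposited factor, and 0 and 21 per read of all 4 classes. miR-871-3p, miR-878-3p and miR-883b-5p were at least 4-fold lower under each of these scalings and with TMM factors. The median log2 ratio was -0.55 for measured members and -1.10 for all measured miRNAs.

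**Figure D4:**
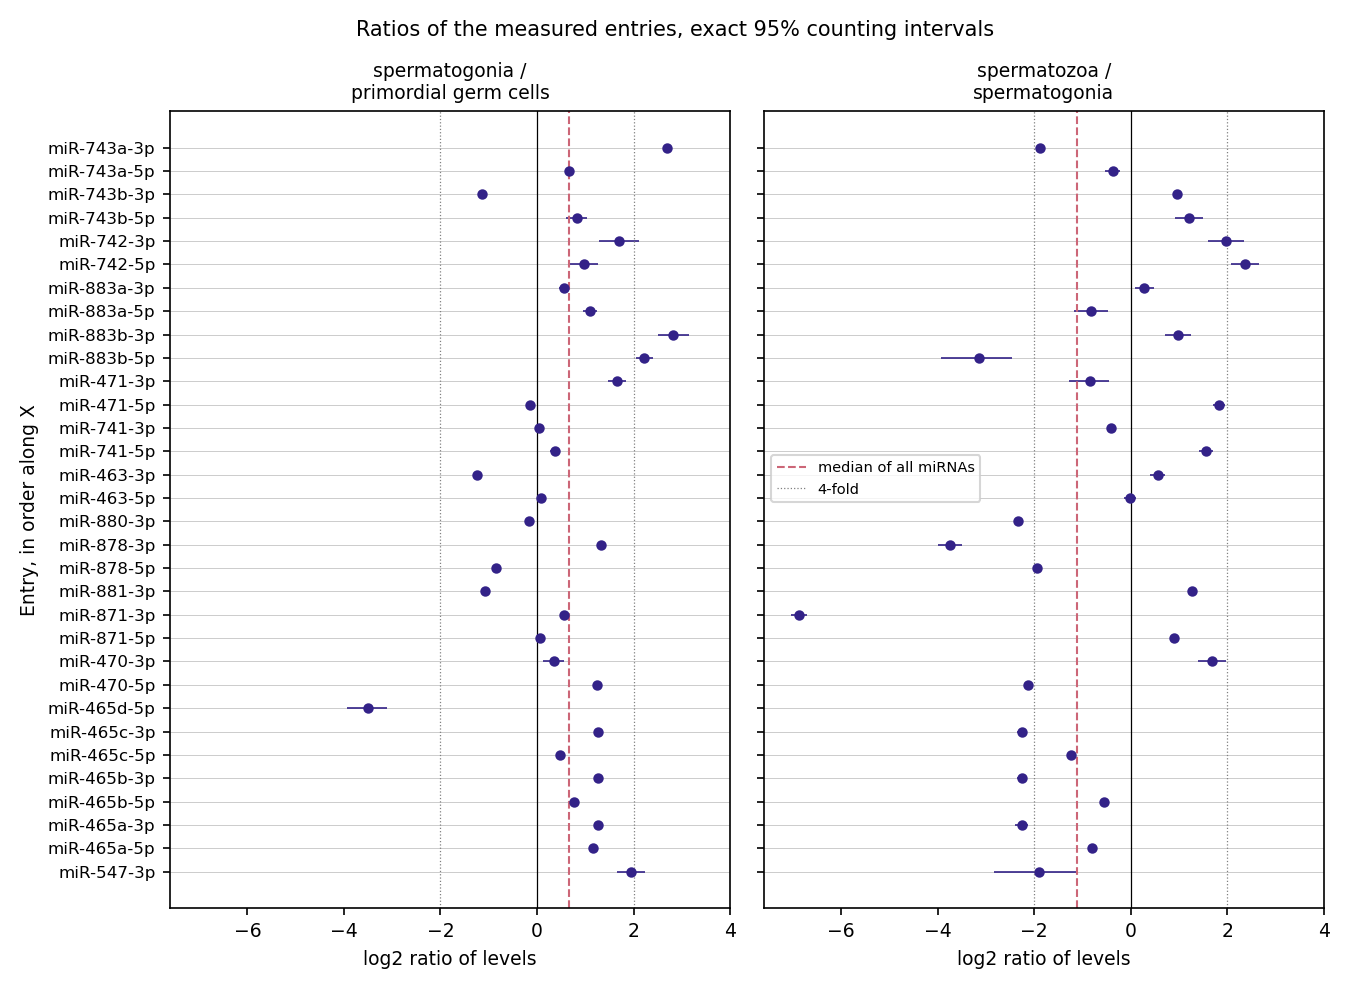
Log2 ratios of the measured members (points, with exact 95% counting intervals), spermatogonia to PGCs (left) and spermatozoa to spermatogonia (right), in order along the chromosome; the dashed line is the median of all measured miRNAs and dotted lines mark 4-fold. On the right, miR-871-3p stands at -6.86, far left of its partner arm miR-871-5p at 0.91.

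The zygote was compared with the oocyte from which it forms. None of the 26 measured members differed 4-fold: 0 were that much higher in the zygote, beside 2.01% of all 299 measured miRNAs, and 0 that much lower, beside 1.34%. With the deposited factor 2 were at least 4-fold higher, miR-880-3p and miR-743a-3p. These lay furthest apart in the main scaling too, at 2.57-fold [2.45 to 2.70] and 2.41-fold [2.27 to 2.56] higher in the zygote, at percentiles 96.0 and 94.6 of all measured miRNAs. At the other end miR-470-5p was 1.26-fold lower [1.20 to 1.33], which turns with the deposited factor, and miR-878-5p was at a ratio of 1.01 [0.979 to 1.03]. The median log2 ratio was 0.13 for members and -0.01 for all.

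Spermatozoa were last set beside the oocyte, the other gamete. Among the 29 members measured in this pair, 7 differed 4-fold or more towards spermatozoa, as did 26.7% of all 300 measured miRNAs, and 2 towards the oocyte, as did 26.3%. The lower ones were miR-871-3p, at 92.7-fold [82.7 to 104.3], and miR-547-3p of the distant pair, at 10.3-fold [5.89 to 19.6]. The 7 higher ones were miR-470-3p, miR-742-5p, miR-883b-3p, miR-471-5p, miR-742-3p, miR-741-5p and miR-883a-3p, none of which reached 1000 RPM in a library. Of these, miR-883a-3p was under 4-fold with TMM, with DESeq2, without the top 5 entries and with the deposited factor, which left 6. miR-470-3p, with the highest ratio (15.0-fold [8.77 to 27.5]), was at 27.2 RPM in PGCs and 34.5 in spermatogonia, with 112 in spermatozoa, 7.46 in oocytes and 17.2 in zygotes. miR-883b-3p was at 8.16, 57.6, 114, 11.4 and 3.87 RPM in the same order. The median log2 ratio was 0.96 for members and -0.09 for all measured miRNAs, while the summed level was 1.42-fold lower in spermatozoa, since miR-871-3p made up 41.8% of the oocyte's sum. Without it the sum was 1.20-fold higher in spermatozoa in RPM. That direction turns with the shift of TMM and with that of leaving out the most abundant entries.

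Ratios between members within a library need no scaling. The reads of miR-871-3p per read of miR-741-3p were 2.37 in PGCs and 3.40 in spermatogonia, with 2.08 in oocytes and 1.78 in zygotes, against 0.0389 in spermatozoa. For miR-880-3p the same ratio was 1.92 in PGCs and 1.66 in spermatogonia, against 0.441 in spermatozoa, 0.101 in oocytes and 0.247 in zygotes. For miR-878-5p it was 4.43, 2.40, 0.834, 0.455 and 0.436 in that order. The egg libraries thus had miR-871-3p at a ratio like that of the male precursors, and miR-878-5p and miR-880-3p at ratios below all 3 male libraries. The reference miR-741-3p was itself highest in RPM in the egg libraries and lowest in spermatozoa. This lowers the ratios of the egg libraries relative to those of spermatozoa. Between egg libraries and spermatozoa it thus widens the gaps of miR-878-5p and miR-880-3p, but narrows that of miR-871-3p. In RPM, miR-878-5p was at 5197 in spermatozoa, 4924 in oocytes and 4950 in zygotes, and miR-880-3p at 2747, 1090 and 2804.

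**Figure D5:**
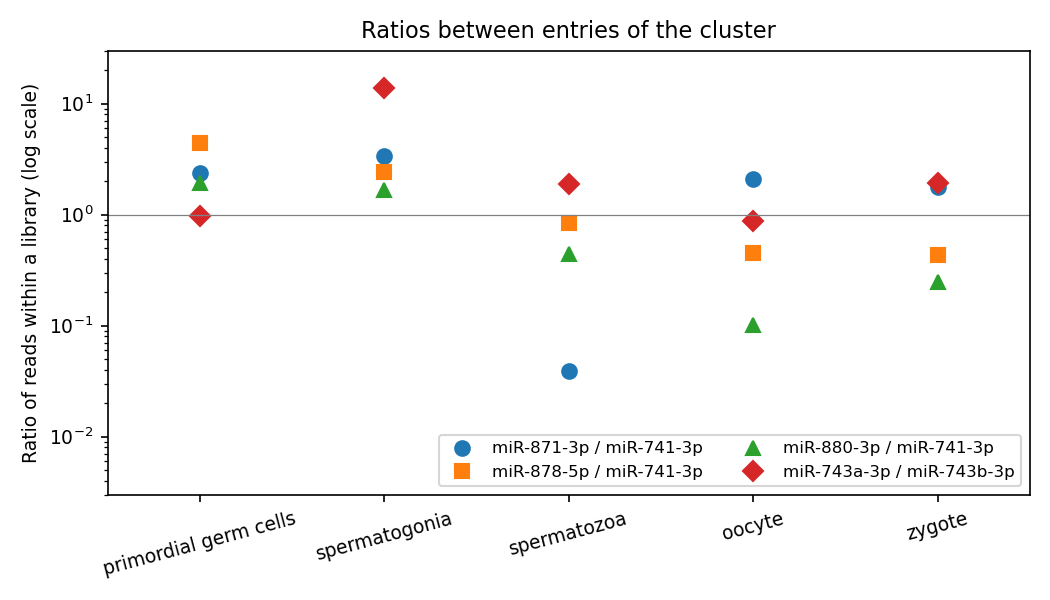
Ratios of reads between pairs of members within each library (vertical axis, log scale; 1 symbol per pair). miR-871-3p to miR-741-3p drops to 0.0389 in spermatozoa, and miR-743a-3p to miR-743b-3p stands at 13.7 in spermatogonia.

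The other 21 entries stayed between 1.64 and 605 RPM at their highest. In RPM, 9 of these were highest in spermatozoa, 1 of them (miR-880-5p) on 2 reads. The rest of the 9 had log2 ratios to spermatogonia from 0.29 (miR-883a-3p) to 2.38 (miR-742-5p). All of those directions turn with the shift of -2.86 per read of all 4 classes. With the deposited factor (-2.13) all but that of miR-742-5p turn. Among entries with at least 100 reads, 10 of 34 members and 133 of all 575 miRNAs were highest in spermatozoa in RPM. The 9 include miR-471-5p, at 605 RPM in spermatozoa, against 187 in PGCs and 169 in spermatogonia, with 84.1 in oocytes and 140.5 in zygotes. The distant pair of miR-201 and miR-547 had low levels throughout, with a sum of 12.7 RPM in PGCs and 47.9 in spermatogonia, with 10.7 in spermatozoa, 134.3 in oocytes and 135.8 in zygotes. Like miR-741-3p it was highest in the egg libraries, mostly through miR-547-3p, at 110 RPM in oocytes and 91.5 in zygotes. miR-547-5p had reads only in the zygote (4), and miR-880-5p at most 2 reads in any library.

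The rest of the X chromosome served as a comparison: 77 other entries whose matched hairpins all lie on X. Their sum was 16215 RPM in PGCs and 7988 in spermatogonia, with 4099 in spermatozoa, 6296 in oocytes and 6156 in zygotes, below that of the cluster in each library. The 3 with most reads were miR-20b-5p, miR-322-5p and miR-106a-5p. From spermatogonia to spermatozoa, the median log2 ratio of the 32 measured was -2.74, beside -1.10 for all measured miRNAs. Of the 32, 19 (59.4%) were 4-fold or more lower and 3 (9.4%) as much higher, beside 37.2% and 14.9% of all. From PGCs to spermatogonia, 14 of 39 (35.9%) were as much higher and 8 (20.5%) as much lower, beside 25.7% and 12.6% of all. The median there was 0.80, beside 0.65 for all. These counts were made in RPM only, and other scalings shift them. These are descriptions of the same libraries, and no test of the difference between the lists was made.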

How the data were processed

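Small RNA reads of 5 mouse libraries, 1 per cell type, were analysed from 20 deposited tables. The read columns are expected counts as deposited by the authors, many with a fraction, and the normalised column is a TMM signal per the file headers, equal to reads times 1 factor per library. In spermatogonia the miRNA reads are whole numbers, and the deposited normalised values lie up to 0.658 from reads times the factor (at most 0.00764 in the other libraries), a difference of less than 1 read. Bowtie 0.12.7, DESeq and mm10 are named without roles per the submitters' processing notes; how mismatches and multiple matches were handled is not given in the sources used here. The tables hold no read sequences or lengths.

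Levels are RPM: reads divided by the miRNA reads of the library, times 1000000. Log2 ratios used a pseudocount of 0.5 reads and a minimum of 100 reads over the pair; a 4-fold difference was counted. Intervals were computed with scipy 1.17.1 after rounding to whole reads. A count of 0 was given the limit of 3 counts. No test between cell types was possible. PCR copies are not independent molecules. The ratio and interval code was tested on simulated data.

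Members and lists were chosen with earlier results of these data known. Named were members reaching 1000 RPM in a library and the highest and lowest ratio of each comparison; others named were chosen after their values were seen. Of 1316 entries, 1090 matched the RefSeq table (GRCm38.p6). Alternatives were reads of all 4 classes (without 5 or 6 snoRNA entries that name no single snoRNA, 0.551% to 4.59% of snoRNA reads), edgeR 4.0.16 TMM and DESeq2 1.42.0 size factors on rounded reads, a total without the most abundant entries, the deposited column, minimums of 20 reads and 1 read, a pseudocount of 5, counting identical sequences as 1, and leaving out miR-878-5p. Leaving out miR-871-3p was chosen after seeing the data.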

Additional observations from a re-analysis of the deposited data

How the results depend on the processing

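No paired analysis was possible because there is 1 library per cell type and the labels carry no replicate numbers. Relative to miRNA totals, log2 ratios of spermatozoa to spermatogonia shift by -2.86 per read of all 4 classes, -2.13 with the deposited factor, 0.10 with TMM, 0.57 with DESeq2 size factors and 0.36 without the most abundant entries. Those of spermatogonia to primordial germ cells shift by -0.16, -0.71, -0.64, -0.61 and -0.25, those of zygote to oocyte by 0.21, 0.76, 0.09, 0.04 and -0.05, and those of spermatozoa to oocyte by 0.26, -0.20, -0.57, -0.17 and -0.28. Arm shares and ratios within a library are not touched by these scalings, by construction. Depth limits spermatozoa most, where 3 reads are 2.47 RPM.

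The log2 ratio of the summed level is listed in the order all 4 classes, TMM, DESeq2, without the most abundant entries, and the deposited factor. For spermatogonia to primordial germ cells (0.15) it turned to -0.0066, -0.49, -0.46, -0.093 and -0.56. For spermatozoa to spermatogonia (-1.59) it was -4.45, -1.48, -1.02, -1.23 and -3.71. For zygote to oocyte (0.05) it was 0.26, 0.14, 0.087, -0.0025 and 0.81, and for spermatozoa to oocyte (-0.51) -0.25, -1.08, -0.68, -0.79 and -0.71. Without miR-871-3p, and in RPM only, these ratios were 0.039, -1.18, 0.18 and, turned in sign, 0.26. Without miR-878-5p, the member with most reads, they were 0.50 for spermatogonia to primordial germ cells, -1.52 for spermatozoa to spermatogonia and -0.58 for the gametes. Identical sequences counted as 1 gave 0.12 and -1.56 in the male comparisons; this keeps only part of the shared miR-465 3p reads, by construction.

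Members at least 4-fold higher in spermatogonia than in primordial germ cells numbered 1 with the deposited factor in place of 3, and lower ones 2 in place of 1 with a minimum of 1 read. From spermatogonia to spermatozoa the higher members (1) numbered 0 per read of all classes and with the deposited factor, 2 with TMM, with a minimum of 1 read and with a pseudocount of 5, 5 with DESeq2 and 4 without the most abundant entries. The lower members (8) numbered 21 per read of all classes, 19 with the deposited factor, and 3 with DESeq2 and without the most abundant entries. Members higher in the zygote (0) numbered 2 with the deposited factor, 1 with a minimum of 20 reads and 3 with a minimum of 1 read. Members lower in spermatozoa than in the oocyte (2) numbered 4 with a minimum of 1 read. Of 104 values under alternatives, 58 stayed within their counting interval or within 1.5 times the count, 39 moved further and 7 changed sign. Which scaling is nearest to RNA per cell was not tested, and apart from the alternatives named as built that way, the cause of a change was not tested.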
